A study of Mus musculus with 112 samples.

Results

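Levels of 10 genes known to differ between inbred mouse strains were followed across mouse mammary tumours of the AKXD recombinant inbred panel: Glo1, Gpnmb, Alad, Soat1, Myo5a, Ide, Ly6a, Ly6c1, Thy1 and Ahr. Members were all probe sets of the Affymetrix MOE430A and MOE430B arrays (array A and array B) whose only gene symbol in the platform annotation is a listed gene. By that rule 7 of the 10 genes were measured, on 19 probe sets, of 18201 genes with such a probe set in the series. Array A held 14 of the 19 probe sets and array B the other 5. The probe table used here names no probe set for Soat1 or Ly6a, and it names Ly6c1 only on a probe set that also carries Ly6c2, so these 3 genes have no level here.

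The tumours were spontaneous mammary tumours driven by a polyoma middle T transgene under the mouse mammary tumour virus promoter (MMTV-PyMT), which is active in mammary epithelium. Their background is labelled AKXD x PyMT, and the strain of the PyMT animals is not given in the sources used here. There were 56 tumours from 18 AKXD sublines, 16 sublines with 3 tumours and 2 (sublines 2 and 25) with 4, labelled as biological replicates. Each tumour was hybridised to both arrays. All carry the transgene, no untreated or normal gland sample is among them, and no age is given in the labels. The rule leaves out array A of subline 23 and of tumour 3 of subline 25, and array B of tumour 3 of subline 11, tumour 2 of subline 23 and tumour 3 of subline 25. That kept 52 arrays A from 17 sublines and 53 arrays B from 18 sublines.

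The AKXD sublines were bred to homozygosity from a cross of AKR/J and DBA/2J, so at each locus a subline carries the allele of one parent or of the other. A gene whose messenger RNA level is set by its own locus can then show a lower and a higher class of sublines. The tumours are labelled AKXD x PyMT, so they can also carry alleles of the unnamed PyMT strain. Levels in the homozygous sublines themselves were not measured here, and no tumour genotypes are in the labels. DBA/2J carries a premature stop codon in Gpnmb, a provirus inserted in Myo5a (the dilute coat colour allele) and a duplication of Alad. Whether AKR/J shares the duplication of Alad, so that it would not differ among the sublines, is not shown by these data. AKR/J carries Thy1.1 where DBA/2J carries Thy1.2, and a deletion in Soat1. A duplicated segment of chromosome 17 that holds Glo1 is known from several inbred strains, and both AKR/J and DBA/2J carry the low-affinity allele of Ahr.

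The arrays hold values on a log2 scale, so a difference of 1 is a doubling of signal, and values of different probe sets are not comparable as amounts of RNA. Their precision is limited by the number of arrays. Among kept arrays, each array's median correlation with the others was 0.97 to 0.991 (array A) or 0.969 to 0.991 (array B). For the arrays left out it was 0.223 to 0.948 (array A) or 0.858 to 0.919 (array B). On array B, tumour 1 of subline 23 stood apart in its Gapdh 3′ minus 5′ signal, at 1.23, the highest of the 53 arrays, of which the lowest was -0.46. Markers of the labelled tissue were bright, with a median of 13.13 for the epithelial adhesion gene Epcam, 12.59 for the keratin Krt8 and 14.36 for the casein Csn3. The tumours are bulk tissue, in which fewer cells of a type and less RNA per cell cannot be told apart.

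None of the 19 member probe sets fell into 2 levels. For each probe set the tumours were ordered and cut where the spread within the sides was smallest, with at least 5 tumours on each side, and 2 levels were called where the side means lay at least 5 pooled SDs apart. On array A, 0 of 14 member probe sets reached that distance, against 0.261% of all probe sets. On array B, 0 of 5 did, against 0.0755%. On array A the members' separations lay between 2.25 and 3.93 pooled SDs, with a median of 2.75 against 2.70 over all probe sets. On array B they lay between 2.58 and 3.09, with a median of 2.73 against 2.67. The widest separations belonged to Glo1, at 3.93 and 3.90 on its brighter probe sets, followed by Gpnmb at 3.61 and by one Ide probe set at 3.39. The empty interval at the cut was at most 0.18 (log2), on that Ide probe set.

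**Figure D1:**
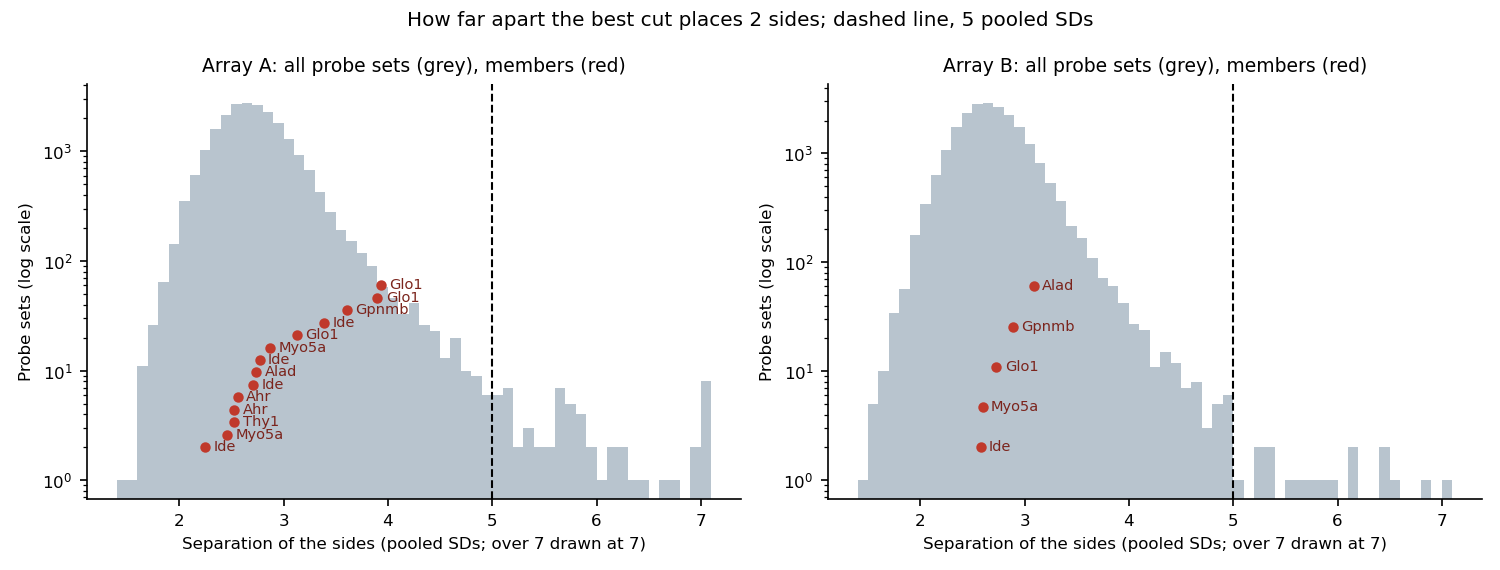
Number of probe sets (log scale) by the distance between the sides of the best cut, in pooled SDs, for array A (left) and array B (right). Grey bars count all probe sets, red points mark the member probe sets at arbitrary heights, and all members lie left of the dashed line at 5, the highest being Glo1 at 3.93.

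Differences among sublines were tested with limma's moderated F test and adjusted by Benjamini-Hochberg over all probe sets of an array. On array A, 0 of the 14 member probe sets passed an adjusted p of 0.05, against 1.74% of all probe sets. On array B, 0 of 5 passed, against 0.671%. With array quality weights in limma these counts were 12 of 14 and 4 of 5, and under the same weights 40.8% of all probe sets of array A and 21.3% of array B passed. At an unadjusted p under 0.05 the members numbered 8 of 14 on array A, where 15.2% of all probe sets lay, and 3 of 5 on array B, where 11% lay. The members' limma adjusted p lay between 0.0514 and 0.859 (array A) and between 0.163 and 0.939 (array B). The highest and lowest subline means of a member differed by 0.33 to 0.99 (log2) on array A, with a median of 0.57 against 0.33 over all probe sets. The 19 member probe sets come from 7 genes, so they are not independent, and the values over all probe sets include dim ones.

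In the same fit each subline was set against the unweighted mean of the others. This made, over the 14 probe sets and 17 sublines of array A, 238 comparisons, of which 4 passed, against 0.459% of all such comparisons on that array. Over the 5 probe sets and 18 sublines of array B it made 90 comparisons, of which 1 passed, against 0.276%. The 5 calls concerned Glo1 in subline 10 on 2 probe sets, Ahr and Ide in subline 22, and Ide in subline 23.

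Glo1 encodes glyoxalase, which clears the reactive by-product of sugar breakdown methylglyoxal, and it was higher in subline 10 than in the other sublines. On its brightest probe set, 1424109_a_at, the tumours of subline 10 read 12.04, 11.85 and 11.82 (11.91 ± 0.12, SD, n = 3). The other 49 tumours had a lowest value of 11.11, a median of 11.37 and a highest of 11.96. Only 1 of those 49 tumours, tumour 2 of subline 20, overlapped the range of subline 10. The difference was 0.52 ± 0.09 (log2, SE), a fold of 1.44, with an adjusted p of 0.00547 by limma. Only 0.0309% of all probe sets on array A were higher in subline 10 by this test, 7 in number, and the 2 Glo1 probe sets are among them.

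On 1424108_at, the tumours of subline 10 read 10.65, 10.50 and 10.37, and the other 49 tumours ran from 9.91 through a median of 10.08 to 10.54. That difference was 0.40 ± 0.07 (SE), a fold of 1.32, with a limma adjusted p of 0.00547. On the dimmer 1451240_a_at the same tumours read 8.70, 8.58 and 8.47, 0.46 ± 0.13 above the others, at a limma adjusted p of 0.471. On 1436070_at of array B they read 7.41, 7.73 and 7.52, 0.10 ± 0.08 above the others, at a limma adjusted p of 1. All 3 probe sets of array A thus had subline 10 as their highest subline, while on array B the highest was subline 24, with 7.77, 7.64 and 7.67. Over 51 tumours the array B probe set had a Pearson r of 0.06 with the brightest one (permutation p = 0.672), 0.22 with 1424108_at (permutation p = 0.118) and 0.43 with 1451240_a_at (adjusted permutation p = 0.00431). The brighter pair on array A had an r of 0.87 over 52 tumours (permutation p = 1e-05, the smallest that the permutations can give).

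The calls for Glo1 in subline 10 were lost when replicate 1 of every subline was left out (0.43 on 1424109_a_at, limma adjusted p = 1) and when replicate 3 was (0.58, limma adjusted p = 0.115). With the arrays that the rule excludes put back, the differences were 0.62 and 0.47, both at an adjusted p of 1 by limma. A score is the mean, over the genes of a marker list, of each log2 value minus that gene's mean. The scores of the 3 tumours of subline 10 were unlike each other. Their adipocyte scores were -0.90, 1.67 and -1.06 and their muscle scores -1.24, 2.23 and -1.68, in the same tumour order as the Glo1 values. With the adipocyte, T cell, B and plasma cell and muscle scores in the model the difference on 1424109_a_at was 0.52 (limma adjusted p = 0.00726).

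Outside subline 10, high Glo1 values came from single tumours. The best cut on 1424109_a_at put 7 tumours on the higher side (mean 11.82) and 45 on the lower (mean 11.35). The 4 that were not of subline 10 were tumour 2 of subline 20 at 11.96, tumour 1 of subline 14 at 11.78, tumour 3 of subline 3 at 11.65 and tumour 3 of subline 7 at 11.62. The other tumours of subline 20 read 11.32 and 11.14, and those of subline 14 read 11.56 and 11.41. Of 17 sublines, 12 lay wholly on the lower side, 4 had tumours on both sides and only subline 10 lay wholly on the higher side. The overall F test of this probe set had a limma adjusted p of 0.0946, with 38.2% of the variance between sublines.

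H2-D1, a class I histocompatibility gene that also lies on chromosome 17, falls into 2 levels of signal on the probe set used here. It was set beside Glo1 as a description, outside the planned comparisons. Whether its 2 levels reflect RNA amount or a sequence difference under the probes was not tested. Its probe set 1450170_x_at had a separation of 8.76 pooled SDs, with 24 tumours between 5.18 and 5.95 and 28 between 8.74 and 11.62. Of the 28 tumours high in H2-D1, 6 were on the higher side for Glo1, and of the 24 low in it, 1 was. Those 6 include all tumours of subline 10, which are not independent of each other. The same count for other genes is not given here, so a link between Glo1 and H2-D1 was not tested. The medians of Glo1 in these sets were 11.41 and 11.32, and the ranges overlapped from 11.14 to 11.78. Tumour 2 of subline 20, the highest Glo1 value outside subline 10, read 9.67 for H2-D1, while the other tumours of subline 20 read 5.59 and 5.95. H2-D1 also differed within subline 2 (9.25, 9.18, 5.58 and 5.54) and subline 27 (5.63, 5.47 and 10.06), where every Glo1 value was on the lower side.

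**Figure D2:**
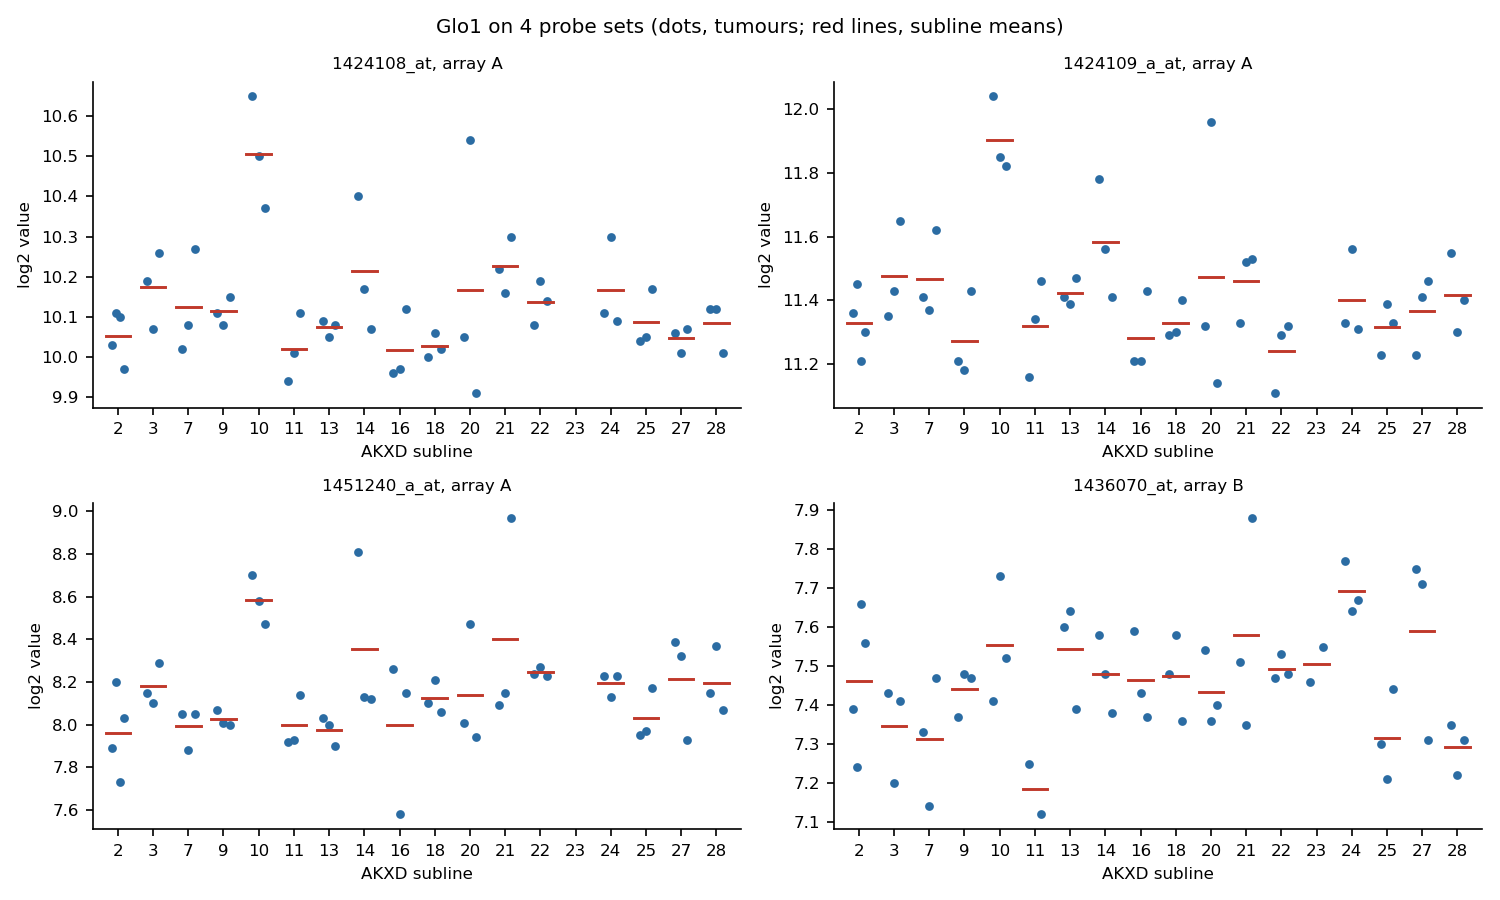
Log2 value of each kept tumour (blue dots) and mean of each subline (red lines) on the 4 Glo1 probe sets, by AKXD subline; array A has no kept tumour of subline 23. Subline 10 is the highest on the 3 probe sets of array A (means 10.51, 11.91 and 8.58), and tumour 2 of subline 20 stands above its subline on all 3.

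Gpnmb encodes a transmembrane glycoprotein of macrophages and pigment cells, and on its brighter probe set it showed no class of sublines that stood apart. On 1448303_at its 52 tumours ran from 6.63 through a median of 7.11 to 8.34. The tumours of the lowest subline, subline 3, read 7.00, 6.91 and 6.63, and those of the highest, subline 22, read 7.39, 7.88 and 7.57. These extreme sublines, chosen from the same values, did not overlap, but the ones between filled the range. The best cut put 13 tumours high, from 9 sublines that each also had tumours on the lower side, and no subline lay wholly on the higher side. The F test gave a limma adjusted p of 0.303. The array B probe set, 1439345_at, was dim, from 4.51 to 5.12, near the bacterial control probe sets of that array at 4.22 to 4.48. It did not follow the first (Pearson r = -0.03 over 51 tumours, permutation p = 0.834). On 1439345_at the tumours of subline 9 read 4.53, 4.51 and 4.57, below the other 50 tumours, whose lowest was 4.59. That difference was -0.33 ± 0.08 (log2, SE), at a limma adjusted p of 0.245.

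Alad, the second enzyme of haem synthesis, was among the least variable members. On 1424877_a_at its tumours ran from 8.80 through a median of 9.22 to 9.64. Subline 9 was the lowest, with 9.01, 9.11 and 8.98, and subline 24 the highest, with 9.31, 9.64 and 9.47. Those sublines, chosen as the extremes of these same values, did not overlap, at a fold of 1.36 between their means. The subline means lay in an unbroken order in which the widest step between neighbours was 0.09, less than the SD within sublines of 0.16. The F test had a limma adjusted p of 0.408. On 1457306_at of array B the widest step was 0.04 and the limma adjusted p 0.939.

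Myo5a, a class V myosin that carries organelles such as melanosomes along actin, came nearest to the threshold. On 1431320_a_at its F test had a limma adjusted p of 0.0514, and 45.1% of the variance lay between sublines. Subline means fell either between 6.91 and 7.05, in 12 sublines, or between 7.23 and 7.27, in sublines 9, 10, 20, 24 and 28. The step of 0.17 between these runs was the widest in the order, against an SD within sublines of 0.12. The tumours of subline 9 read 7.26, 7.20 and 7.22, those of subline 10 read 7.18, 7.18 and 7.34, and those of subline 28 read 7.13, 7.25 and 7.30. These 3 sublines lay wholly on the higher side of the cut, while subline 20 (7.05, 7.39 and 7.36) and subline 24 (7.47, 7.04 and 7.27) each had a tumour below it.

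The other Myo5a probe sets gave part of that order. On 1436051_at of array B the widest step, also 0.17, set 4 sublines apart: subline 9 (mean 7.25), subline 10 (7.34), subline 24 (7.44) and subline 23 (7.46, n = 2), with all others at 7.07 or lower. The kept tumours of subline 23 read 7.67 and 7.26, the first being tumour 1, whose Gapdh 3′ minus 5′ signal was 1.23. Subline 20 was at 6.90 there and subline 28 at 7.04. On 1419754_at, whose median of 5.09 is close to the array A bacterial controls at 4.54 to 4.78, subline 10 was the highest (5.15, 5.33 and 5.70). The 3 probe sets followed each other over tumours, with a Pearson r between 0.56 and 0.68 and adjusted permutation p of at most 6.29e-05 over 22 pairs of probe sets compared. On 1431320_a_at only 3 of 17 sublines had tumours on both sides of the cut, which was seen after the values were known. At most 3 such sublines occurred on 0.385% of all probe sets of array A, and the median over all was 11. Tumour 1 of subline 21 was the kept array A with the lowest correlation to the others. Without it, an alternative chosen after seeing the data, the F test of this probe set had a limma adjusted p of 0.0332. With array medians aligned the limma adjusted p was 0.0458. Of 12 alternatives tried for this probe set, 3 passed and 9 did not, with limma adjusted p between 5.09e-04 and 0.59.

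**Figure D3:**
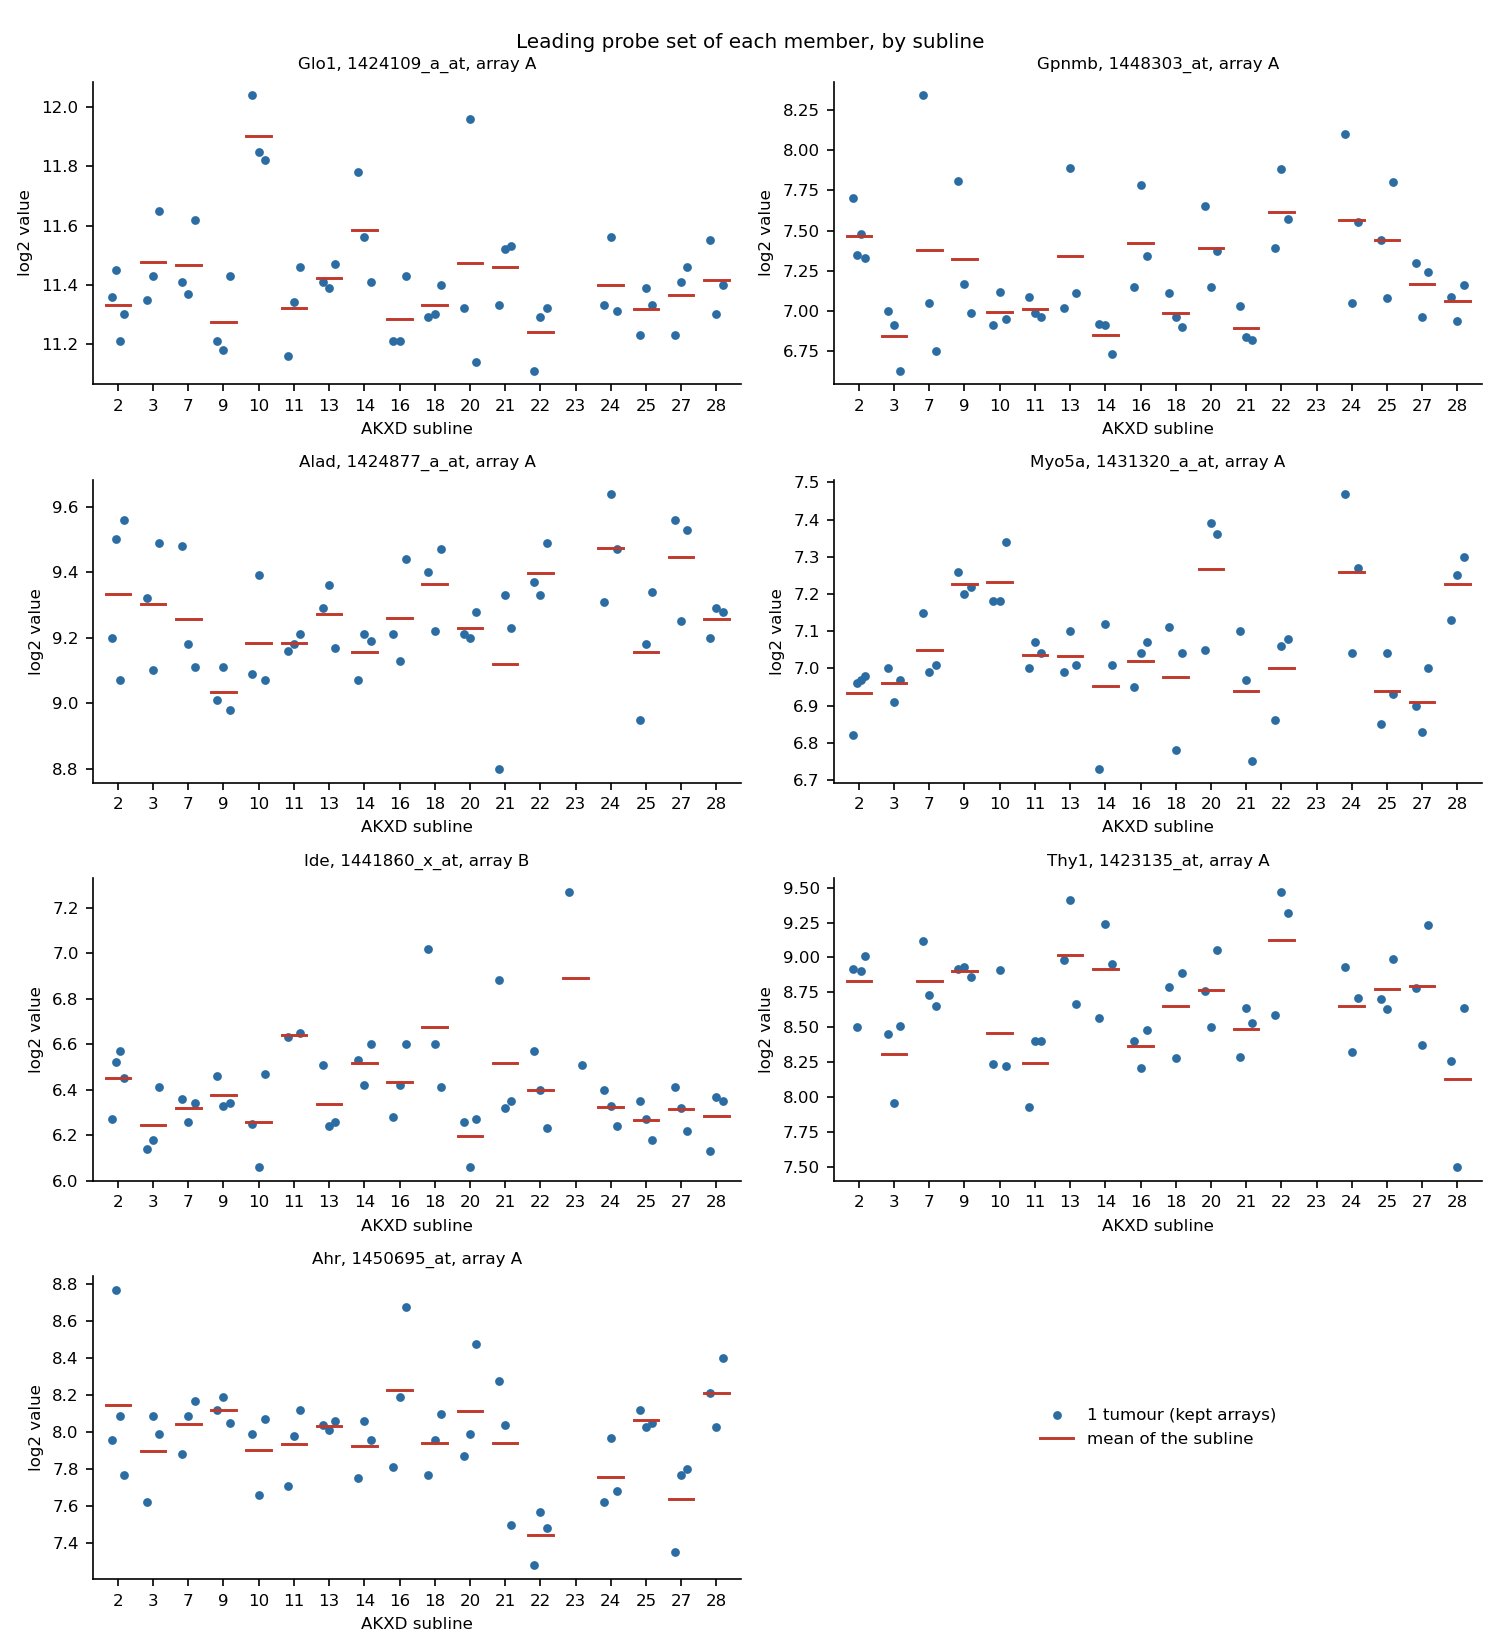
Log2 value of each kept tumour (blue dots) and mean of each subline (red lines) on the probe set of each member with the smallest F test p, by AKXD subline. Glo1 is highest in subline 10 and Ahr lowest in subline 22, Myo5a has 5 subline means at 7.23 or above and 12 at 7.05 or below, and subline 23 has the highest mean for Ide (6.89); array A has no kept tumour of subline 23.

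Ide encodes a metalloprotease that degrades insulin and other small peptides, and its 5 probe sets differed in how they ordered the sublines. On 1453988_a_at the tumours of subline 22 read 7.03, 7.10 and 7.99, and the other 49 ran from 7.30 through a median of 8.10 to 8.70. The third tumour of subline 22 lay inside the range of the others, 16 of which were below it. The difference was -0.71 ± 0.20 (log2, SE), a fold of 0.611, at a limma adjusted p of 0.0406. In this subline 2.56% of all probe sets of array A were lower by the same test. On 1423121_at the same tumours read 7.75, 8.22 and 8.18, a difference of -0.33 ± 0.10 with a limma adjusted p of 0.059. On 1423120_at, the brightest, they read 9.93, 9.71 and 9.87 (-0.09 ± 0.12), on 1435140_at 9.25, 9.29 and 9.21 (0.10 ± 0.09), and on 1441860_x_at of array B 6.57, 6.40 and 6.23 (-0.01 ± 0.10). Whether these differences differ between probe sets was not tested.

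Over tumours the Ide probe sets were related to different degrees. 1423121_at and 1453988_a_at had a Pearson r of 0.67 (adjusted permutation p = 3.67e-05), and 1423120_at and 1435140_at had an r of 0.66 (adjusted permutation p = 3.67e-05). Across these pairs the values were mixed. Between 1435140_at and 1453988_a_at the r was -0.06, and between 1423120_at and 1423121_at it was 0.07. Between 1423120_at and 1453988_a_at it was 0.35 (adjusted permutation p = 0.0179), with a Spearman's rho of 0.41 (adjusted permutation p = 0.00694). Of the 22 pairs of probe sets of the same member, 13 passed an adjusted permutation p of 0.05 on Pearson's r and all 13 were positive, and 12 passed by Spearman's rho.

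On array B, Ide on 1441860_x_at was higher in subline 23, whose 2 kept tumours read 7.27 and 6.51. The other 51 tumours ran from 6.06 through a median of 6.35 to 7.02, and 12 of them exceeded the lower tumour of subline 23. The difference was 0.50 ± 0.13 (SE) with a limma adjusted p of 0.0162, in a subline where 1.19% of all probe sets of the array were higher. The tumour at 7.27 is the one whose Gapdh 3′ minus 5′ signal was 1.23. Without it the difference was 0.12 ± 0.16 at a limma adjusted p of 1, with the remaining tumour assumed to vary like those of the other sublines.

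Ahr encodes the ligand-activated transcription factor that binds dioxins and other aromatic compounds. On 1450695_at it was lower in subline 22, whose tumours read 7.28, 7.57 and 7.48. The other 49 tumours ran from 7.35 through a median of 8.03 to 8.77, and 2 of them lay below the highest tumour of subline 22. The difference was -0.55 ± 0.15 (log2, SE), a fold of 0.682, with a limma adjusted p of 0.0237. On the brighter 1422631_at the same tumours read 10.14, 10.43 and 9.95, which was 0.17 ± 0.19 above the others (limma adjusted p = 0.802). The 2 Ahr probe sets had a Pearson r of 0.36 over tumours (adjusted permutation p = 0.016) and a Spearman's rho of 0.16 (adjusted permutation p = 0.361), and r was 0.18 without the 2 tumours farthest from the median.

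Tumours 2 and 3 of subline 22, but not tumour 1, had high adipocyte and muscle scores. Adipocyte scores were 0.16, 1.50 and 1.50, against a median of -0.12 and a highest of 1.67 in the others. Muscle scores were -0.01, 1.63 and 2.77, against a median of -0.11 and a highest of 2.55. Of the 9 lists these 2 had the highest means in subline 22 (1.05 and 1.46), followed by macrophages at 0.32. With the same 4 scores in the model, the difference of Ahr on 1450695_at was -0.49 (limma adjusted p = 0.0707) and that of Ide on 1453988_a_at was -0.59 (limma adjusted p = 0.0985). The first tumour of subline 22 had the lowest Ahr and Ide values of the subline on these probe sets and its lowest adipocyte and muscle scores. The Gapdh 3′ minus 5′ signal on array A was 0.09, 0.09 and -0.12 in subline 22, against a median of -0.18 and a highest of 0.19 in the other tumours. In subline 27, with the next lowest means for Ahr on 1450695_at (7.64) and Ide on 1453988_a_at (7.69), it was 0.12, -0.06 and -0.10. The part of the Gapdh signal, or of other tissue in the samples, in these differences was not tested. The Ahr call was also lost without replicate 1, 2 or 3 of every subline (limma adjusted p = 0.151, 0.172 and 0.114), and the Ide call without replicate 1 or 2 (limma adjusted p = 0.426 and 0.291).

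**Figure D4:**
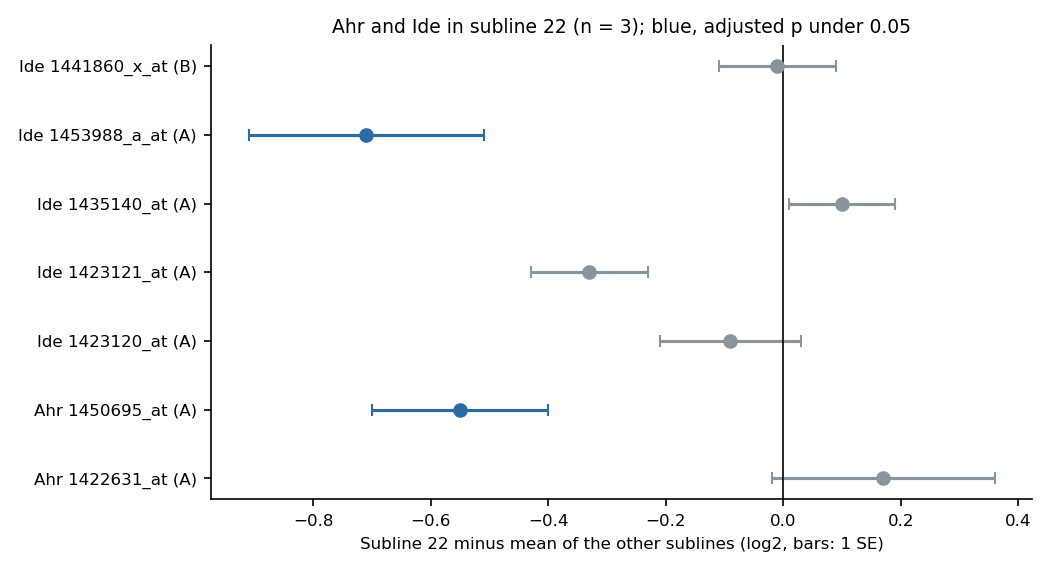
Mean of subline 22 (n = 3 tumours) minus the mean of the other sublines, in log2 units with bars of 1 SE, for the 2 Ahr and 5 Ide probe sets. Blue points passed a limma adjusted p of 0.05 and grey ones did not; the probe sets of each gene ranged from -0.55 to 0.17 for Ahr and from -0.71 to 0.10 for Ide.

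Thy1 encodes a small surface glycoprotein of T cells, fibroblasts and other cells. On 1423135_at its tumours ran from 7.50 through a median of 8.66 to 9.47. Subline 28 was the lowest, with 8.26, 7.50 and 8.64, and subline 22 the highest, with 8.59, 9.47 and 9.32, so the extreme sublines overlapped. The fold between their means was 1.99, the widest of any member. The F test had a limma adjusted p of 0.153, with 31% of the variance between sublines, and subline means had no step wider than 0.16 against an SD within sublines of 0.32.

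Levels of the members were then set beside scores of 9 lists of cell type markers across the 52 kept tumours of array A, in 63 pairs. By permutation with Benjamini-Hochberg adjustment over the 63 pairs, 22 passed 0.05 and 21 of them passed by both Pearson's r and Spearman's rho. None of the markers of these lists lay at or under the bacterial controls on average, which does not show that each cell type was present. The 5 measured melanocyte genes had means of 6.42 to 7.75, and their score ran only from -0.24 to 0.37. The T cell score was as narrow, from -0.22 to 0.32. Whether the melanocyte score reflects melanocytes was not tested. The tumours share a platform and the scores share tumours, so the pairs are not independent, and what sets both a member and a score was not tested. Tumours of the same subline share a background, so they are not independent units for these permutation tests either. That limit also holds for the permutation tests between probe sets.

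Thy1 had the strongest relations. Its r with the fibroblast score was 0.78 (rho = 0.76, permutation p = 1e-05 for each, adjusted p = 1.57e-04, the smallest that the permutations can give), and 0.73 without the 2 most distant tumours. Its r was 0.70 with adipocytes, 0.67 with macrophages and 0.65 with endothelial cells, each at an adjusted permutation p of 1.57e-04. With T cells its r was 0.22 (rho = 0.26, permutation p = 0.112, adjusted p = 0.181).

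Gpnmb had an r of 0.56 with the macrophage score (rho = 0.49, permutation p = 2.00e-05, adjusted p = 2.52e-04), and 0.49 without the 2 most distant tumours. Its r was 0.55 with adipocytes and 0.51 with fibroblasts, and with melanocytes, the other cell type known for Gpnmb, 0.07 (permutation p = 0.636). Alad had an r of 0.57 with the mammary epithelium score (rho = 0.55, permutation p = 3.00e-05, adjusted p = 2.70e-04), and 0.50 without the 2 most distant tumours. Its r with melanocytes was -0.33 (rho = -0.36, adjusted permutation p = 0.0466).

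Glo1 had an r of -0.46 with mammary epithelium (rho = -0.39, permutation p = 0.00108, adjusted p = 0.00567). That relation depends on the arrays used: with all 56 arrays r was 0.70. Those include the left-out tumour 3 of subline 23, where Glo1 read 7.70, against a lowest of 11.11 in kept tumours. Ide, on its brightest probe set, had an r of -0.52 with T cells (rho = -0.50, permutation p = 1.20e-04, adjusted p = 9.45e-04) and of -0.51 with melanocytes (rho = -0.60, permutation p = 1.70e-04, adjusted p = 0.00107). Myo5a passed with B and plasma cells by Pearson's r alone (0.42, adjusted permutation p = 0.0094, against 0.28 and 0.0956 by rho). Ahr had an r of -0.35 with melanocytes on its brightest probe set (rho = -0.45, adjusted permutation p = 0.0322) and of 0.09 on 1450695_at.

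**Figure D5:**
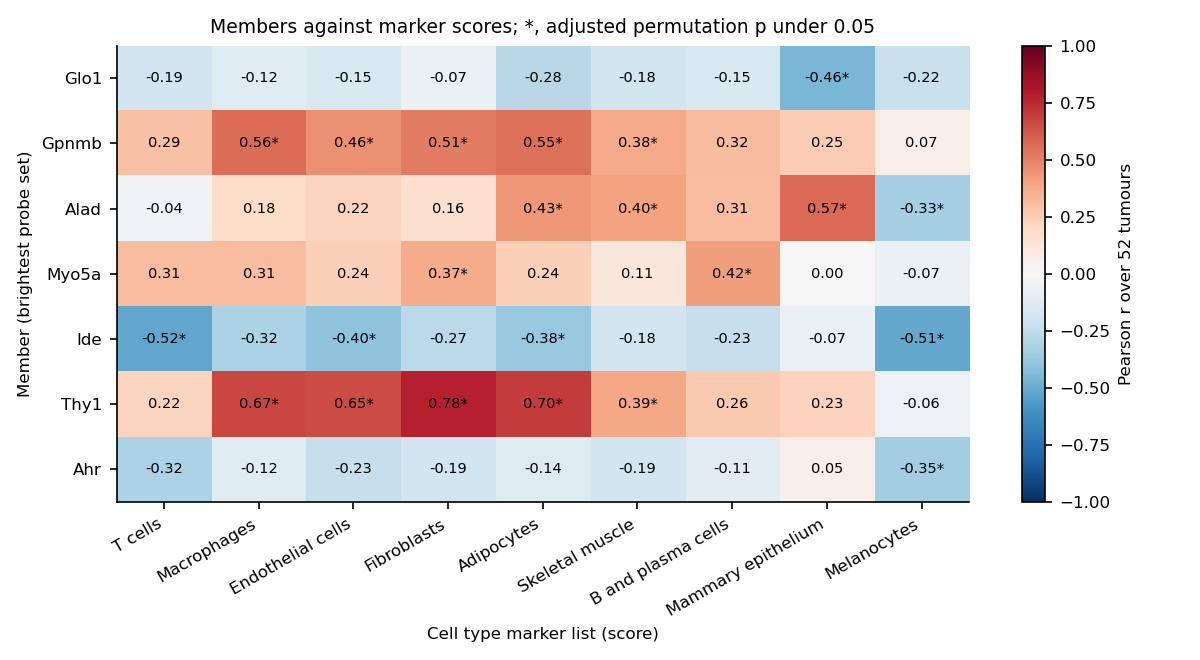
Pearson r over 52 tumours between the brightest probe set of each member on array A and 9 cell type marker scores; an asterisk marks an adjusted permutation p under 0.05. Thy1 has its highest value with fibroblasts (0.78), Gpnmb with macrophages (0.56) and Alad with mammary epithelium (0.57), and Ide is negative with all 9 lists.

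For the probe set of each member with the smallest F test p, the genes on the same array whose values ran most like it were taken by absolute Pearson r over the kept tumours, as a description. Alad ran most like Alas1 (r = 0.75), the first enzyme of haem synthesis, then Uqcrfs1 of respiratory complex III (0.75) and Ebp of cholesterol synthesis (0.74). Thy1 ran most like Nid1 (0.78), Efemp1 (0.76) and Col3a1 (0.76), which encode proteins of basement membrane and extracellular matrix. Gpnmb ran most like Clec7a (0.71) and Clec10a (0.66), lectin receptors of myeloid cells, and the complement protease gene C1s1 (0.65). Glo1 ran most like Poldip2 (0.73), Med9 (0.72) and Dap3 (0.70), which lie on chromosomes 11 and 3. Myo5a ran most like Naalad2 (0.55), Wipf1 (0.53) and, in the opposite sense, Mrpl14 (-0.53). Ide on 1441860_x_at ran most like Rad23b (0.71), Skor1 (-0.69) and Sf3b1 (0.67), and Ahr on 1450695_at like Papola (0.81), Fam107b (0.80) and Prkci (0.78).

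Other genes of the members' pathways and families were counted in the same F test, where 2.23% of all genes had a called probe set. Over 8 lists, 1 of 70 measured genes passed. That gene was Tfe3, a transcription factor related to Mitf, from the list of pigment cell genes and Mitf targets that was drawn up beside Gpnmb (1 of 11). On 1434318_a_at of array B, Tfe3 was lowest in subline 23 (8.88 ± 0.11, n = 2) and highest in subline 22 (9.35 ± 0.06, n = 3), with a limma adjusted p of 0.0288. The subline 23 tumours include tumour 1, whose Gapdh 3′ minus 5′ signal was 1.23. No gene passed of methylglyoxal and glutathione handling (0 of 7), haem synthesis (0 of 8), cholesterol ester storage and efflux (0 of 6), class V myosins and melanosome transport (0 of 9), metalloproteases related to Ide (0 of 5), the Ly6 family (0 of 15) or the aryl hydrocarbon receptor pathway (0 of 9). In the haem list Alas1 had a limma adjusted p of 0.259, and in the glyoxalase list Gclm, which takes part in glutathione synthesis, had 0.193.

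The nearest 10 measured genes on each side of each of the 10 listed genes, by gene order in the RefSeq table of GRCm38.p6, gave 180 distinct genes. Of these 1 (0.556%) passed the F test and none had 2 levels. It was Xpr1, the phosphate exporter gene that serves as receptor of xenotropic and polytropic retroviruses, near Soat1 on chromosome 1. On 1426053_a_at, Xpr1 was lowest in subline 22 (5.97 ± 0.02, n = 3) and highest in subline 21 (6.63 ± 0.36, n = 3), with a limma adjusted p of 0.0144. Xpr1 has 7 probe sets here, of which only this 1 passed. No neighbour of Glo1, Gpnmb, Alad, Myo5a, Ide, Ly6a, Ly6c1, Thy1 or Ahr passed within 10 genes.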

How the data were processed

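RNA of 56 mammary tumours was hybridised to Affymetrix MOE430A and MOE430B arrays. The deposited values are log2 expression values per probe set, made with RMA per the submitters' processing notes, without a version or settings. RMA quantile-normalizes arrays together, so a difference is relative to the array's other probe sets. The array types were deposited separately and were tested separately. Samples were grouped by the subline in their labels. The members and gene lists were chosen with earlier results of these data known. Probe sets were named from the platform annotation, with symbols updated through the RefSeq table of GRCm38.p6.

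Control probe sets were left out. limma 3.58.1 in R 4.3.3 (lmFit and eBayes) fitted 1 mean per subline on kept arrays. F tests and contrasts of each subline with the unweighted mean of the others were adjusted by Benjamini-Hochberg over all 22626 (array A) or 22511 (array B) probe sets, at 0.05. Named were all member probe sets, the leading one (smallest F test p) and the brightest, up to 3 genes per pathway list, the 3 most alike genes and called neighbours. Two-sided permutation tests over tumours used 100000 resamples. The limma fit and the cut into 2 levels were tested on simulated data. Labels call the tumours biological replicates; whether littermates are among them is not stated, and p-values measure the spread between these tumours. Replicate numbers did not pair tumours across sublines. Scan dates and batches are not in the labels, so no batch was modelled. The alternatives tried were other array sets, normalizations, filters, weights, priors, composition covariates and left-out replicates. No sequence is shown.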

Additional observations from a re-analysis of the deposited data

Results flagged for a closer look

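The subline with 4 kept tumours on both arrays, subline 2, allows a look for a tumour far from its group on each of the 19 member probe sets, by Dixon's test. Chance alone marks about 1 in 20 such groups, and 2 of 19 were marked. For Myo5a on 1431320_a_at, tumour 1 of subline 2 read 6.82, below the others at 6.96, 6.97 and 6.98. For Ahr on 1422631_at, tumour 2 of subline 2 read 11.11, above the others at 10.01, 9.84 and 9.96, and it was the highest of all 52 tumours on that probe set.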

How the results depend on the processing

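The precision of all values is limited by 2 to 4 tumours per subline. Array quality weights moved the counts most: with them 12 member probe sets of array A and 4 of array B passed the F test (none without weights), and 16 and 6 comparisons of 1 subline with the others passed (4 and 1 without). Under these weights 40.8% and 21.3% of all probe sets passed the F test, and 4.08% and 2.29% of all comparisons passed. With all arrays, the F test passed for 1 member probe set on array A, 10 such comparisons passed on array A (3.93% and 3.86% over all probe sets), 1 probe set there had 2 levels, 37 marker pairs passed in place of 22, and 2 pathway genes and 2 neighbours passed in place of 1 each. With array medians aligned, 1 member probe set passed the F test on array A, as it did without tumour 1 of subline 21, an alternative chosen after seeing the data. With composition covariates, which come from array A and were fitted on array B over tumours kept on both, 2 comparisons passed on array A and 0 on array B. Without tumour 1 of subline 23, also chosen after seeing the data, 0 passed on array B. Leaving out replicates 1 to 4 in turn gave 0 to 4 comparisons on array A, 0 to 1 on array B and 0 to 1 F test calls on array B, where subline 11 or 23 then has 1 tumour that is assumed to vary like the rest. With 20 neighbours on each side, 10 of 360 genes passed (2.78%). The r of Glo1 with mammary epithelium reversed to 0.70 with all arrays, and that of Ahr with melanocytes to 0.09 on the probe set with the smallest F test p. The arrays A left out by the rule had median correlations with the other arrays of 0.223 to 0.948. The cause of these shifts was not tested.

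Replicate numbers did not pair tumours: the mean correlation of same-numbered tumours' deviations was -0.00315 on array A and 0.00442 on array B. With the replicate block, F test calls stayed at 0 on both arrays, and 4 and 1 comparisons passed. Over single member probe sets and all alternatives, 223 of 243 F tests kept their side of the threshold and 20 newly passed, 16 of them with array weights. Of 64 such values for the named subline differences 20 no longer passed and none changed sign, and of 150 for the marker pairs that passed, 21 no longer did with their sign kept and 2 changed sign.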
